A study of Mus musculus with 8 samples.

Results

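The smooth muscle contractile genes are 10 genes that encode the force-generating and force-regulating proteins of smooth muscle: the myosin heavy chain Myh11, the actins Acta2 and Actg2, the intermediate filament protein Des, the actin-binding proteins Tagln, Cnn1, Synpo2, Lmod1 and Smtn, and the kinase Mylk. The members were taken as every probe set that the array annotation assigns to one of these genes alone, which gave 19 of the 45101 probe sets. Of the 19, 15 lay above the intensity filter described below, and each of the 10 genes kept at least 1 probe set. They were read in Peyer's patches, the lymphoid follicles embedded in the wall of the small intestine, of 8 C3H/Hej mice, an inbred strain without a working Tlr4. From 6 weeks of age, 6 mice were gavaged for 28 days with ovalbumin (OVA), the main protein of egg white and a common test allergen, at 40 mg/kg per day, and 2 control mice with saline over the same time. Each mouse gave 1 array, and by replicate number they were female 7 and male 8 among the controls, and females 2 and 12 and males 1, 5, 8 and 13 among the OVA mice. The labels do not say how much of the gut wall was taken with each patch, and their extraction text names a brain region of a patient although the tissue field gives Peyer's patches.

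Smooth muscle contracts when calcium and calmodulin activate myosin light chain kinase, which lets myosin pull on actin filaments anchored at dense bodies and dense plaques. In the gut this muscle forms the muscularis layers under the mucosa and the walls of vessels, and enteric neurons and interstitial cells of Cajal set its rhythm. Many of its contractile genes are switched on by serum response factor (Srf) with its partner myocardin (Myocd) at a short element called the CArG box.

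Of the 10 genes, 7 have a promoter window in RefSeq (GRCm38.p6), from 250 bases before to 50 bases after the transcription start. The CArG box, searched without departures and reading the same on both strands, occurred in 0 of these 7 windows and in 1.63% of all 32851 windows. With 1 base of its A and T core allowed to be C or G, it occurred in the window of Acta2 alone, against 9.98% of all windows. The Acta2 window holds 2 such elements, at 84 to 75 and at 34 to 25 bases before the start. It is shown as the only 1 of the 7 windows with such an element. The window lies at chr19:34255324-34255623 on the minus strand, the sequence is from RefSeq, and capitals mark the 2 elements.
Acta2 promoter: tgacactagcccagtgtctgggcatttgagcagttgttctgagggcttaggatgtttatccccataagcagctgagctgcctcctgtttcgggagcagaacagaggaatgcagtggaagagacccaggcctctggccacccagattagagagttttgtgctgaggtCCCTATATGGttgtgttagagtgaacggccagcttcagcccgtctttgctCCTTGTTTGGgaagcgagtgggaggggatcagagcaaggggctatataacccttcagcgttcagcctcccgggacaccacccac
A match describes these letters only, and a window without one says nothing of sites elsewhere in the gene.

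Each muscle gene read 24.07 or more in every patch by its brightest probe set, though no detection calls were used. The mean of these genes was somewhat lower in OVA mice without any passing the test, and they varied widely among the OVA mice. Values are the authors' probe set intensities on a linear scale. Differences are on the scale of log2(intensity + 4.88), and a gene is represented by its brightest probe set unless a probe set is named. All 10 genes had a lower mean in OVA mice in the fit of treatment and sex, by a median of -0.22, while the median over all 11988 genes measured was 0.02 and 46.3% of them were lower. No member passed limma after Benjamini-Hochberg adjustment (smallest adjusted p = 0.409 over the 15 probe sets), where 0 of the 22518 tested probe sets passed (0%). At an unadjusted p under 0.05, 2 of the 15 member probe sets were lower and 0 higher, against 974 lower (4.33%) and 1550 higher among all tested. All 6 OVA arrays lay below both controls for 3 of the 15 member probe sets, against 5.01% of all tested probe sets. Nothing in the labels says more than that the arrays come from different mice, so the error given is the spread between these arrays. In whole tissue, fewer muscle cells and less muscle RNA per cell cannot be told apart.

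The largest differences were those of Myh11 and of the second probe set of Mylk. Myh11, the myosin heavy chain of smooth muscle, read 711.5 in the female and 608 in the male control. It read 461.5 and 589 in female OVA 2 and 12, and 489.7, 347, 404 and 509 in male OVA 1, 5, 8 and 13. Every OVA value lay under both controls, and the log2 difference was -0.47 ± 0.17 (SE, adjusted p = 0.412), with a 95% interval from -0.85 to -0.09 before adjustment. Its dimmer probe set 1418122_at read 28.6 to 37.3 in controls and 24.3 to 40.0 in OVA mice, which overlapped, with a difference of 0.02 ± 0.14 (SE). Mylk, the kinase that phosphorylates myosin light chain, was read by 3 probe sets designed on the same sequence record. Its brightest, 1425506_at, read 1074 and 856 in the female and male control, and 712 to 857 with a median of 849 in OVA mice, with male OVA 1 above and female OVA 12 level with the male control. The log2 difference was -0.24 ± 0.13 (SE, adjusted p = 0.507), and it was -0.07 without female control 7 and -0.44 without male control 8. Probe set 1425505_at read 1061 and 818 in controls, 509.9 and 675 in female OVA 2 and 12, and 749.8, 513, 605 and 739.8 in male OVA 1, 5, 8 and 13. These OVA values all lay below both controls, and this probe set had the largest difference of the 15, -0.57 ± 0.19 (SE, adjusted p = 0.409). Without male control 8 that difference was -0.85, and without female control 7 it was -0.34. The third, 1425504_at, lay at -0.12 ± 0.09 (SE).

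The actins showed smaller differences with more overlap. Acta2, the alpha actin of vascular and visceral smooth muscle, read 1887 and 1663 in the female and male control. Its OVA values were 1612 and 1793 in females 2 and 12, and 1621, 1098, 1254 and 1528 in males 1, 5, 8 and 13. One OVA array, female OVA 12, lay above the lower control, and the log2 difference was -0.23 ± 0.16 (SE, adjusted p = 0.576). By the suffix of its name this probe set holds probes shared between transcripts, so other actin transcripts may add to it. Actg2, the gamma actin typical of gut muscle, read 385 and 286 in controls, 305 and 393 in female OVA 2 and 12, and 346, 159, 224 and 309.8 in male OVA 1, 5, 8 and 13. The highest and the lowest value of Actg2 were both from OVA mice, and the difference was -0.18 ± 0.27 (SE, adjusted p = 0.803), or -0.065 without male OVA 5.

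Among the genes for proteins that bind or anchor actin, only the brightest Synpo2 probe set separated the groups. Synpo2, an actin-bundling protein of the Z-disc and dense bodies, read 175 and 148 in controls and 86.7 to 147 with a median of 131.5 in OVA mice, a difference of -0.36 ± 0.19 (SE, adjusted p = 0.496). The highest OVA value was just under the male control. The other tested Synpo2 probe sets, 1452879_at and 1441206_at, overlapped between groups at 0.09 ± 0.27 and 0.01 ± 0.18 (SE), and with the gene's probe sets averaged the difference was -0.09. Tagln, the actin-binding protein transgelin, read 757 and 728 in controls, 651 and 889 in female OVA 2 and 12, and 697, 375, 523 and 689 in male OVA 1, 5, 8 and 13. Its groups overlapped through female OVA 12, and the difference was -0.21 ± 0.25 (SE, adjusted p = 0.747). Cnn1, the calponin that restrains myosin's ATPase, read 163 and 155 in controls and 67.65 to 176 with a median of 150.2 in OVA mice, a difference of -0.22 ± 0.28 (SE, adjusted p = 0.76). Without male control 8 the differences of Tagln and Cnn1 were 0.0078 and 0.020, on the other side of 0. Des, the intermediate filament desmin that links dense bodies, read 221 and 207 in controls and 123 to 224 with a median of 180.1 in OVA mice, a difference of -0.24 ± 0.18 (SE, adjusted p = 0.599). Only female OVA 12 exceeded the controls for Des, and the difference was -0.09 without male control 8 and -0.37 without female control 7. Smtn, smoothelin, lay at -0.13 ± 0.11 (SE), with controls at 37.2 and 34.4 and OVA mice from 28.0 to 36.7. Lmod1, leiomodin, a nucleator of actin filaments, stood apart: its controls were the lowest and the highest of the 8 arrays, at 24.1 in the female and 40.6 in the male, and its difference was -0.04 ± 0.19 (SE). The 4 probe sets under the filter, 2 of Acta2 and 1 each of Des and Synpo2, read between 3.035 and 14.98 on every array and were not tested.

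**Figure D1:**
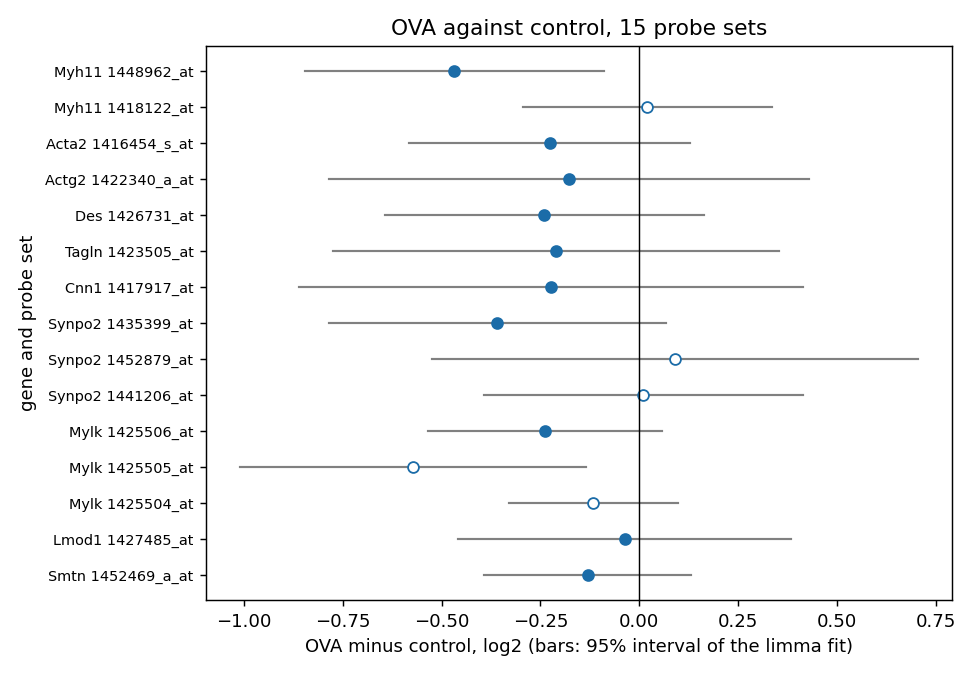
Log2 difference between OVA and control mice for the 15 tested probe sets, from the limma fit of treatment and sex on 8 arrays, with bars for the unadjusted 95% interval. Filled points are the brightest probe set of each gene and open points the others, and the intervals of Myh11 1448962_at and Mylk 1425505_at alone lie below 0, neither passing after adjustment.

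Within each sex the comparison rests on a lone control. Myh11, Acta2 and Synpo2 were the 3 of 10 genes in which every OVA array read below the control of its own sex, against 9.76% of all genes. For Myh11 the log2 differences from the same-sex control were -0.62 and -0.27 in females and -0.25 to -0.80 in males. Tested across all probe sets, the difference between males and females in the OVA effect passed for 0 of 15 member probe sets, as for 0 of all 22518 (0%). Among the members 1 probe set reached an unadjusted p under 0.05, that of Lmod1, against 1234 lower and 612 higher among all tested. The muscle genes were higher in females than in males for 9 of 10 genes, with a median of 0.27. Over all genes the median was -0.01, and 54% were lower in females. Actg2 had the largest such difference, 0.46 ± 0.24 (SE, adjusted p = 0.901), and 0 of 15 member probe sets passed limma or reached an unadjusted p under 0.05, where 0.0533% of all tested passed and 324 were higher and 894 lower at that p. Without female OVA 12 the median difference between the sexes was 0.15, and without male OVA 5 it was 0.19.

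Most of the 10 genes varied together from mouse to mouse, in large part through male OVA 5, while Lmod1 did not follow the others over all 8 arrays. The muscle score, the mean log2 value of the 10 genes, was 0.25 and 0.15 above the mean of the 8 arrays in the female and male control. It was -0.002 and 0.21 in female OVA 2 and 12, and 0.06, -0.53, -0.19 and 0.04 in male OVA 1, 5, 8 and 13. Male OVA 5 was thus the lowest and male OVA 8 the next, while female OVA 12 sat between the controls. Male OVA 5 alone was the lowest of the 8 arrays for 9 of the 10 genes, all but Lmod1, against 10.1% of all genes. That array was singled out after its values were seen. In its patch Cnn1 read 67.65 and the next lowest array 111, Tagln 375 and 523, and Actg2 159 and 224. Before centring, the 2 controls had a mean score of 8.11 ± 0.07 (SD) and the 6 OVA mice one of 7.84 ± 0.26 (SD), or 7.93 ± 0.14 (SD) without male OVA 5. Without that array the median difference between OVA and control mice was -0.14. Over the 6 OVA arrays the median member gene spanned 0.74 log2 between its lowest and highest array, and the median of all genes spanned 0.45. The ratio of 3' to 5' signal of the beta-actin control probe sets, a measure of RNA integrity, was 1.37 in male OVA 5. Across the arrays it ran from 1.29 in female OVA 2 up to 1.58 in male OVA 8, which had the next lowest muscle score. The female and male control, both above the mean in muscle score, had the next highest ratios after male OVA 8, 1.43 and 1.54. How RNA integrity bears on the muscle values was not tested.

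**Figure D2:**
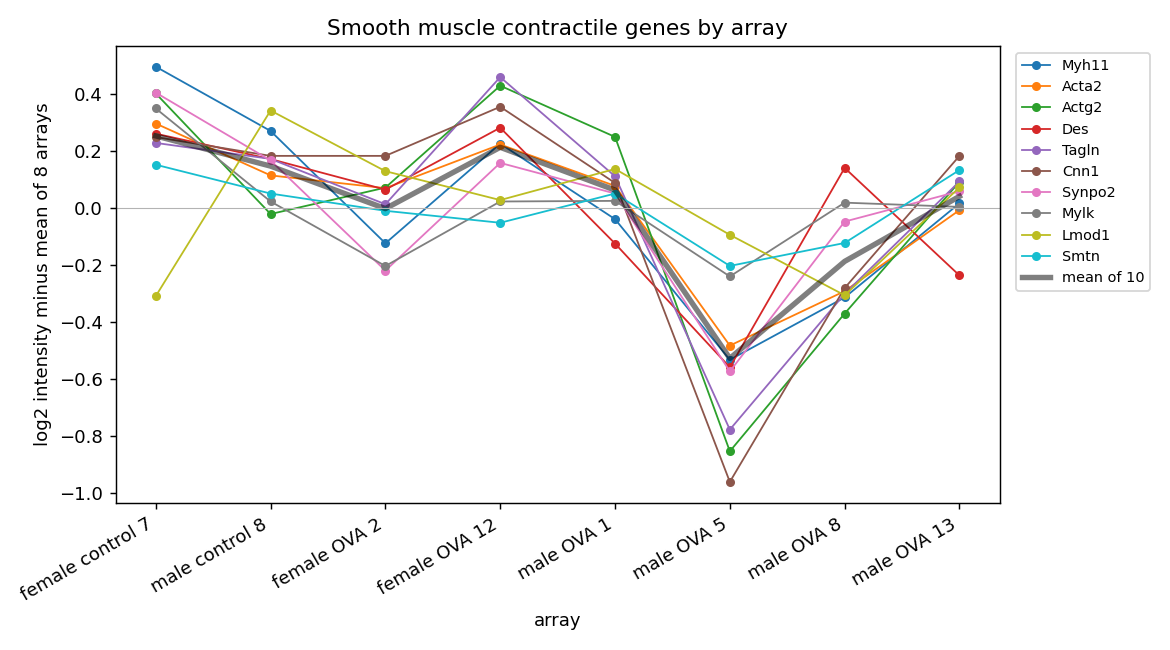
Log2 intensity of each of the 10 genes (brightest probe set), centred on its mean over the 8 arrays, by array, with the mean of the 10 as a thick grey line. Male OVA 5 is lowest for 9 genes, with Cnn1, Actg2 and Tagln furthest down, and Lmod1 runs apart from the others in the female control.

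Over the 8 arrays the 45 pairs of genes had a median Pearson correlation of 0.76, and 28 pairs lay above 0.7. Tagln and Cnn1 were the closest pair at 0.97, and Acta2, Actg2, Tagln and Cnn1 stood between 0.94 and 0.97 with each other. Synpo2 ran with Myh11 at 0.92 and with Mylk at 0.91. Lmod1 ranged from -0.37 to 0.32 against the other 9. It was lowest in the female control (24.07), the array with the highest muscle score. Its lowest OVA values were in male OVA 8 (24.13) and male OVA 5 (28.7), which also had the lowest muscle scores. How far the low Lmod1 correlations rest on the female control was not tested. Without male OVA 5 the median over pairs was 0.46 and 12 pairs lay above 0.7. Acta2, Actg2, Tagln and Cnn1 then still stood between 0.86 and 0.93, while Des with Actg2 went from 0.69 to 0.17. These correlations describe arrays that share each mouse's tissue sample, and no test was made of them.

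Probe sets of one gene did not always follow each other. The probe sets 1425505_at and 1425504_at of Mylk had correlations of 0.93 and 0.78 with its brightest over the 8 arrays, and the dim one of Myh11 0.72. For Synpo2 the dimmer probe sets 1452879_at and 1441206_at had correlations of -0.03 and 0.22 with the brightest. Probe set 1452879_at read 20.5 and 25.05 in controls, 23.4 and 31.7 in female OVA 2 and 12, and 22.9, 22.3, 36.6 and 13.6 in male OVA 1, 5, 8 and 13. It was highest in male OVA 8 and female OVA 12, the arrays with the most B cell signal.

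The other parts of the smooth muscle apparatus were mostly lower as well, without passing the test. Of a list of 43 such genes, 31 were measured, 25 lower and 6 higher in OVA mice, with a median of -0.16, where 46.3% of all genes were lower. After adjustment 0 passed. At an unadjusted p under 0.05 in limma, 3 of the 31 were lower (Cavin1, Mrvi1 and Pln) and 0 higher, against 4.33% of all tested probe sets lower. Both myosin light chain genes, Myl9 and Myl6, were lower, as were 10 of 12 genes of dense plaques and the cytoskeleton, 5 of 6 of kinase and phosphatase control, and 4 of 6 transcriptional regulators, Srf and Myocd being in that group of 6. Cavin1, which coats the caveolae of the muscle membrane, read 109 and 128 in controls and 80.4 to 100.5 in OVA mice, a difference of -0.40 ± 0.11 (SE, adjusted p = 0.375). Mrvi1, the target of cGMP-dependent kinase that holds back calcium release, was at -0.32 ± 0.12 (SE), phospholamban (Pln), which restrains the calcium pump of the sarcoplasmic reticulum, at -0.40 ± 0.17 (SE), and the potassium channel Kcnma1 at -0.22 ± 0.09 (SE), with adjusted p from 0.416 to 0.446. Pln and Kcnma1 read under 25 on every array. The score of this list was lowest in male OVA 5 (-0.19) and male OVA 8 (-0.10) and highest in the female control (0.15), the arrays at the ends of the contractile score. Cavin1 and Mrvi1 did not follow that order. They read 95.5 and 55.5 in male OVA 5 and were lowest in female OVA 2, at 80.4 and 47.7. Pln and Kcnma1 were lowest in male OVA 5.

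In the array with the lowest muscle score, the lists of other gut wall cells lay less far down than the 10 contractile genes, though fibroblasts (-0.22) lay further down than the other smooth muscle apparatus. In male OVA 5 the fibroblast score (9 of 10 genes measured) was -0.22, the lowest of the 8 arrays, and the pericyte score (7 of 7) -0.12, also the lowest, as was that of the interstitial cells of Cajal (-0.18), while the endothelial score (9 of 9) was 0.10, above all but the male control. The summed intensity of the fibroblast genes ran from 5496 to 5604 in controls and from 4517 to 6600 in OVA mice, that of pericytes from 1138 to 1289 and from 962 to 1327, and that of endothelium from 393 to 448 and from 343 to 421. Interstitial cells of Cajal were read through Kit and Ano1 of 4 genes, summing to 79.5 to 86.1 in controls and 70.7 to 85.1 in OVA mice. Enteric neurons were read through 4 of 10 genes (198 to 251 and 121 to 278), with Elavl4, Uchl1, Tubb3, Snap25 and Chat under the filter, and enteric glia through Sox10 and Ednrb of 5 genes (115 to 121.5 and 82.0 to 139). Of the 12 striated muscle genes 4 were measured (79.3 to 80.4 and 58.9 to 80.7), and the striated myosins Myh1, Myh2, Myh4, Myh6 and Myh7 were under the filter. The 3 mesothelial genes Msln, Upk3b and Wt1 were all under it. Median differences between OVA and control mice were -0.09 for fibroblasts, -0.11 for pericytes, -0.07 for endothelium and for interstitial cells, -0.06 for enteric glia and for striated muscle, and 0.05 for enteric neurons, and 0 genes of these lists passed. The part of these cells in the muscle differences was not tested.

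**Figure D3:**
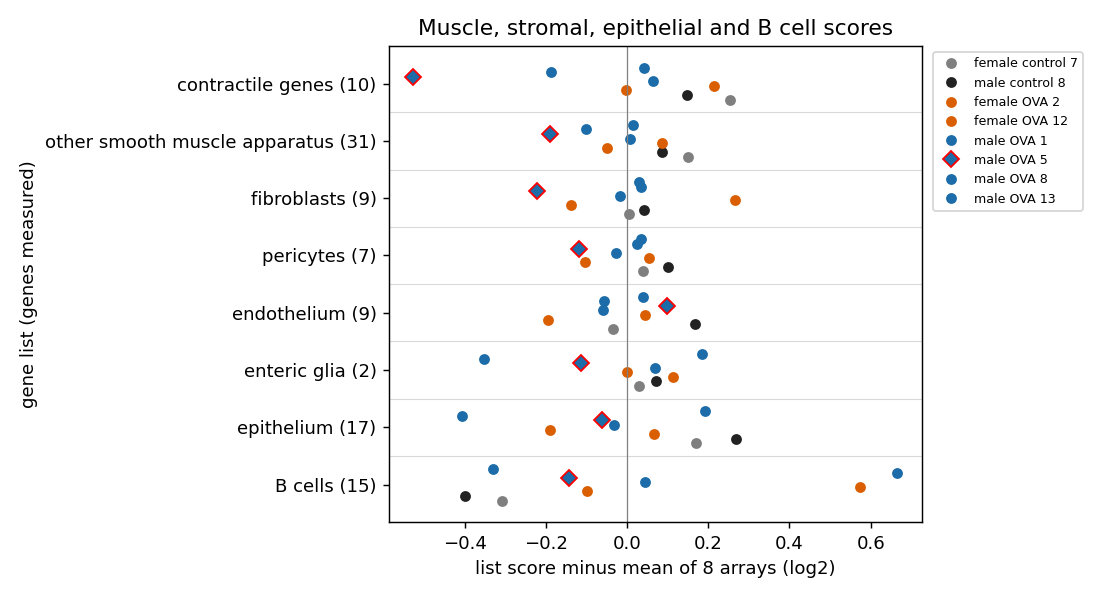
Scores of 8 gene lists on each array, as the mean log2 intensity of the measured genes minus the mean over the 8 arrays, with grey and black points for the female and male control, orange for female OVA and blue for male OVA. The red-edged diamond is male OVA 5, lowest in both muscle lists (-0.53 and -0.19), in fibroblasts and in pericytes but not in endothelium, enteric glia, epithelium or B cells.

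The patches also differed in how much lymphoid and epithelial RNA they gave, and the muscle genes were set against both. The B cell score (15 of 16 genes measured) ran from -0.40 in the male control to 0.57 in female OVA 12 and 0.67 in male OVA 8, and the epithelial score (17 of 17) from 0.27 in the male control to -0.41 in male OVA 8. These scores mirrored each other over the 8 arrays (Pearson r = -0.94, Spearman rho = -0.93), so their relations to muscle cannot be told apart. The relation of the muscle score to either depended on which arrays were kept. It had r = -0.10 and rho = -0.24 with the B cell score, and r = -0.34 without male OVA 8 and female OVA 12, the arrays farthest from the median. Without male OVA 5 it was r = -0.41, and in the 6 OVA arrays alone r = 0.21, with the opposite sign. With the epithelial score it had r = 0.39 and rho = 0.38, and r = 0.19 without male OVA 8 and the male control, the farthest ones there. Without male OVA 5 that was r = 0.56, and in the OVA arrays alone r = 0.17. Female OVA 12 and male OVA 8, alike in B cell score, lay 0.21 above and 0.19 below the mean in muscle score. These correlations are descriptions over 8 arrays and are given with no p. The members were chosen with earlier results of these data known, which holds equally for the fits that give p in this report.

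**Figure D4:**
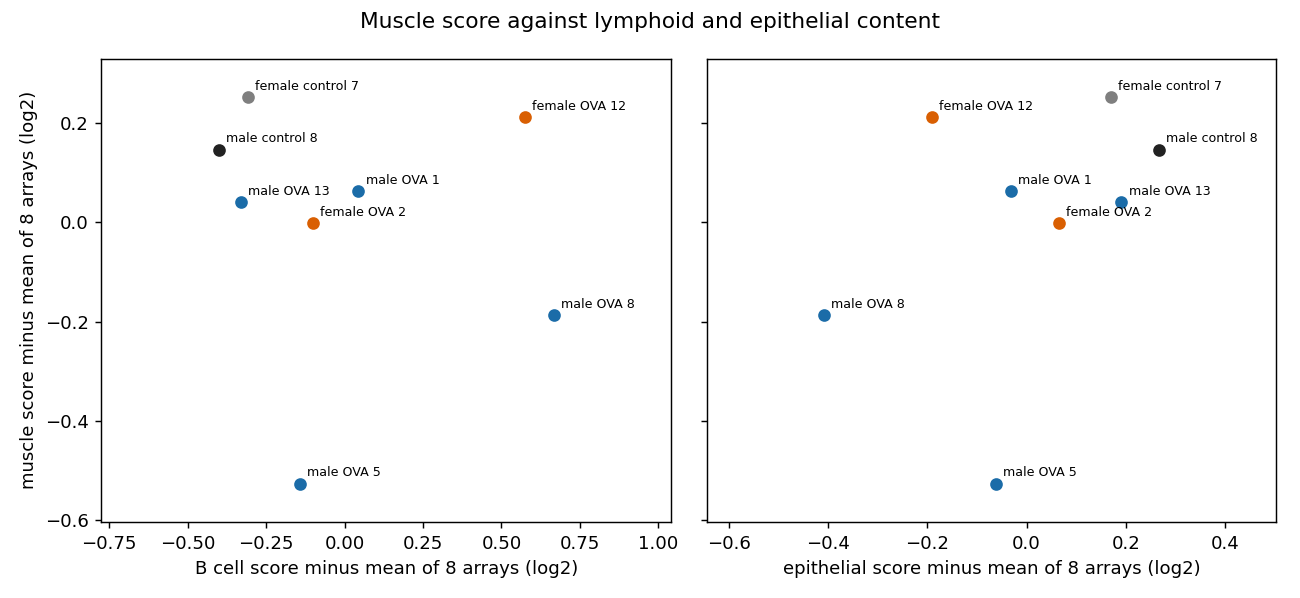
Muscle score (vertical) against the B cell score (left) and the epithelial score (right), each in log2 units relative to the mean of the 8 arrays, 1 point for each array. Male OVA 5, at -0.53, lies near the middle of both horizontal axes, and female OVA 12 and male OVA 8 stand apart on the B cell axis at 0.57 and 0.67.

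Gene by gene, the fit of log2 intensity on the B cell score called 1 of the 15 member probe sets (6.67%), where 17.3% of all tested were called, and that on the epithelial score called 0, where 14.6% of all were. These shares of all probe sets rest largely on male OVA 8: without it 955 of the 22518 were called on the B cell score and 0 on the epithelial score, and 0 members on either. At an unadjusted p under 0.05, 2 member probe sets had a negative and 0 a positive slope on the epithelial score, against 4226 negative and 2530 positive among all tested. The brightest probe sets had slopes on the B cell score from -0.22 ± 0.26 (SE) for Myh11 to 0.22 ± 0.23 (SE) for Des, per unit of score, with a median of -0.05 and adjusted p of 0.353 and above. That median was -0.34 without female OVA 12, -0.56 without both female OVA 12 and male OVA 8, and 0.15 in the 6 OVA arrays alone. The 1 call was the dim Synpo2 probe set 1452879_at, with a slope of 0.69 ± 0.18 (SE, adjusted p = 0.0284), and it was not called without female OVA 12 (adjusted p = 0.0754), without male OVA 8 (0.186) or with no intensity filter (0.0521). On the epithelial score 9 of 10 genes had a positive slope, with a median of 0.52 against -0.06 over all genes, Myh11 at 0.77 ± 0.43 (SE, adjusted p = 0.263) and Cnn1 at 0.69 ± 0.59 (SE, adjusted p = 0.477). The slope fits held no term for treatment or sex. With both as covariates the median epithelial slope was 0.344, and in the 6 OVA arrays alone it was 0.335. The same Synpo2 probe set stood at -1.19 ± 0.36 (SE, adjusted p = 0.053). With the B cell score added to the fit of treatment and sex the median OVA difference of the 10 genes was -0.25, and with the epithelial score added it was -0.12. In both fits 0 member probe sets passed.

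Outside the 10 genes, those whose pattern over the 8 arrays was most like the muscle score, by Pearson correlation, were Synm (0.97), Gal (0.96), Defa31 (0.96), Tpm2 (0.95), Sh3bgr (0.94), Ccnd1 (0.94), Dmpk (0.93), Igf1r (0.93), Krba1 (0.93) and Acap3 (0.92). Synm, the intermediate filament protein synemin, and Tpm2, the beta tropomyosin, are muscle proteins of the list above. Without male OVA 5 they stood at 0.94 and 0.96. Without that array Gal was at 0.88 and Defa31 at 0.846, and the rest ran from 0.779 for Igf1r to 0.935 for Ccnd1. Synm read 107 and 81.3 in controls and 47.3 to 93.4 in OVA mice, lowest in male OVA 5. Gal, the neuropeptide galanin, which enteric neurons release, read 42.2 and 39.1 in controls and 18.6 to 41.1 in OVA mice, again lowest in male OVA 5. Defa31, one of the near-identical alpha-defensin genes of Paneth cells, whose signals this probe set may not separate, read 10980 and 10860 in the female and male control. It read 7492 and 8635 in female OVA 2 and 12, and 5482, 66.2, 982 and 9515 in male OVA 1, 5, 8 and 13. The lowest defensin values were thus in the arrays with the lowest muscle scores, male OVA 5 and male OVA 8, and the part of this in the muscle values was not tested. None of these 10 genes passed for OVA against control (adjusted p from 0.472 to 0.874).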

How the data were processed

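Total RNA was labelled with biotin and read on a single-colour Affymetrix array, 1 array per mouse. The deposited intensities are on a linear scale, between 1.86 and 14749, normalized by the authors. MAS5 is named, per the submitters' processing notes; its version and settings: not given in the sources used here. Among the 19 member probe sets, 8 hold a value that occurs on more than 1 array, and which step gave these repeats, and so whether the values are MAS5 output as deposited, was not settled. The arrays' trimmed means lay between 65.1 and 68.2. Precision is set by there being only 8 arrays.

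Intensities were taken to log2(value + 4.88), the 25th percentile, with no further scaling. The 64 control probe sets were left out, and the 22518 probe sets with a mean above the median (intensity 11.9) were tested. Two-sided fits were made in limma 3.58.1 (R 4.3.3; lmFit, eBayes) with Benjamini-Hochberg adjustment over all tested probe sets and a threshold of 0.05. These were OVA and sex in 1 additive fit, the difference in OVA effect in a fit of 4 group means, where the single control of a sex takes its spread from the other arrays, and slopes on the B cell and epithelial scores. Scores are mean log2 intensities of 1 probe set per gene. The annotation gives 34958 probe sets 1 gene, 932 several and 9211 none, and all 10 member symbols matched the reference by gene ID.

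Named were all members, the 4 other apparatus genes and 2 genes of each other list with the smallest p, and the 10 genes most correlated with the muscle score. The members and lists were chosen with earlier results of these data known. The fits were tested on simulated data. Python 3.11.15 with pandas 2.3.3 and matplotlib 3.10.9 made tables and figures.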

Additional observations from a re-analysis of the deposited data

Results flagged for a closer look

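In the 4 male OVA arrays, the brightest Mylk probe set read 712 in male OVA 5, and the nearest of the others read 845, a gap of 0.914 of the group's range against a critical value of 0.829. Of 32 such tests over the member probe sets and the muscle score this was the 1 past its value, and chance passes about 1 in 20.

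The OVA effect on Lmod1 ran in opposite directions in the sexes. Both female OVA arrays read above the female control (0.44 and 0.34 log2) and all 4 male OVA arrays below the male control (-0.21 to -0.65). The difference, males minus females, was -0.78 ± 0.27 (SE), and it did not pass limma (adjusted p = 0.554). Each sex has 1 control, and those controls were the lowest and the highest Lmod1 values of the series.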

How the results depend on the processing

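No paired analysis was possible because each mouse gave 1 array under 1 treatment and the labels name no pairs. Replicate number 8 occurs in both groups but for different mice. For OVA against control, the count of member probe sets passing was 0 under all 22 alternatives, and the median over the 10 genes stayed below 0, from -0.33 without female control 7 to -0.14 without male OVA 5, and -0.12 with the epithelial score as a covariate. Leaving out 1 array moved Tagln between -0.39 and 0.0078, Cnn1 between -0.43 and 0.020 and Lmod1 between -0.39 and 0.39, the upper ends all without male control 8. Lmod1 was also above 0 without male OVA 8 (0.022), with array weights (0.049) and with the B cell score (0.094), the epithelial score (0.19) or their difference (0.13) as a covariate. The other 7 genes kept their sign. For the sexes and for the difference in OVA effect the count stayed at 0.

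The count called on the B cell score was 0 with no filter, with a filter at the 75th percentile, with probe sets averaged per gene and without female OVA 12 and male OVA 8 together, 0 to 1 without 1 array, and 2 with treatment and sex as covariates. Its median slope ran from -0.34 to 0.057 without 1 array and was -0.56 without female OVA 12 and male OVA 8. In the 6 OVA arrays alone it was 0.15, and with treatment and sex as covariates 0.038. On the epithelial score the count was 1 with a pseudocount of 11.9, with median centring, with trend and robust variance and in the 6 OVA arrays alone, 0 to 1 without 1 array, and 2 with array weights or with treatment and sex as covariates. The calls were Synpo2 1452879_at and, where 2, also 1441206_at. The median epithelial slope was 1.54 without female OVA 12 and male OVA 8 and 0.335 in the 6 OVA arrays alone. The stricter filter and the averaging per gene do not test 1452879_at on its own, and the cause of the other moves was not tested. With 2 controls, only large differences could pass.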

Other observations

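In vessels, fibroblasts and pericytes, the 2 genes of each list with the smallest p for OVA against control were lower in OVA mice. Kdr, the receptor for vascular endothelial growth factor, read 82.0 and 96.1 in the female and male control and 60.0 to 92.5 in OVA mice, a difference of -0.34 ± 0.13 (SE). Tie1, an endothelial receptor kinase, was at -0.30 ± 0.11 (SE). It read 25.7 in the male control but 16.4 in the female control, inside its OVA range of 14.9 to 17.6. The collagen chains Col6a1 and Col3a1 were at -0.37 ± 0.15 and -0.31 ± 0.15 (SE), and the pericyte genes Rgs5 and Abcc9 at -0.18 ± 0.17 and -0.17 ± 0.17 (SE). None passed the test (adjusted p from 0.411 to 0.69). These genes were picked by p, and their lists were split: 7 of 9 endothelial, 5 of 9 fibroblast and 6 of 7 pericyte genes were lower, and the others higher.

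Actc1, the cardiac actin, read 26.0 and 17.6 in controls and 11.2 to 16.9 in OVA mice, a difference of -0.41 ± 0.14 (SE, adjusted p = 0.409), and the troponin Tnni2 was at 0.14 ± 0.11 (SE). Both read under 30 on every array. Among nerve-related genes, Prph was at 0.11 ± 0.11, the receptor Ret at 0.07 ± 0.12, Sox10 at -0.04 ± 0.12 and Ednrb at -0.07 ± 0.21 (SE), and in interstitial cells of Cajal the receptor Kit was at -0.09 ± 0.15 and the chloride channel Ano1 at -0.04 ± 0.10 (SE).

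The lists used for content moved in opposite directions. All 17 epithelial genes were lower, with Elf3 at -0.55 ± 0.17 and Cdx1 at -0.47 ± 0.18 (SE). All 15 B cell genes and all 11 measured T cell genes were higher, with medians of 0.56 and 0.25, Fcrla at 0.92 ± 0.29, Ebf1 at 0.58 ± 0.22, Cd247 at 0.45 ± 0.18 and Cd5 at 0.51 ± 0.21 (SE). None of these genes passed after adjustment.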
